A study of Rattus norvegicus with 15 samples.

Results

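Keratins are the intermediate filament proteins of epithelial cells. KRT8, KRT18 and KRT19, with KRT7, are the simple keratins that mark luminal cells of the mammary gland, and KRT5, KRT14, KRT15 and KRT17 mark its basal and myoepithelial cells. Each filament pairs a type II keratin (KRT5, KRT7 or KRT8) with a type I keratin (KRT14, KRT15, KRT17, KRT18 or KRT19), and the usual partners are KRT8 with KRT18 and KRT5 with KRT14. The 8 genes were taken by name from a table of 17463 genes, and 7 of them had a row. KRT7 had none under its symbol or its older name and was not analysed here.

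The samples were 15 mammary tumours of Fischer rats, from which a small piece gave the poly(A)-selected RNA that was sequenced. All rats received the carcinogen N-nitroso-N-methylurea (NMU) as a pair of intraperitoneal doses of 50 mg/kg. The midkine group (9 libraries) also received recombinant rat midkine, a heparin-binding growth factor, (300 ug/kg, 3 injections weekly) over the 2 weeks ahead of each NMU dose, and the vehicle group (6 libraries) is labelled vehicle, with 1 protocol text, which describes midkine dosing, given for all libraries. Ages are not given in the labels. Libraries are named by group and title number, and those that share a first number (midkine 3-1 and 3-2, midkine 4-1 to 4-3, vehicle 2-1 and 2-2) may or may not be tumours of 1 rat, which no label says.

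Libraries held 4925504 to 8486523 counted reads, and each of the 7 keratins had at least 668 reads in every library, so that counting error is small beside the spread between tumours. Several libraries stood apart in other tissue genes. Midkine 1 had 19.3% of its reads in 8 skeletal muscle genes, midkine 5 had 11.3% in 3 fibrillar collagen genes, and midkine 3-1, 3-2, 4-1, 4-2 and 4-3 had at most 1 read of the muscle myosin MYH4. The other 10 libraries carried MYH4 reads and were also examined on their own. Midkine 1 had 424500 of these reads, and the rest of the 10 had 461 to 993 each. Whether so even a trace came from muscle in each piece or from the handling of the libraries was not tested. In these bulk pieces, fewer cells of a type and less RNA per cell cannot be told apart.

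RefSeq promoters matched 3 of the 8 genes, and the 250 bases before the start of each (build GRCr8) are shown. They cover KRT8 and KRT18, the most closely correlated pair, and KRT5, the basal type II keratin.
KRT8, chr7:135010340-135010589, minus strand: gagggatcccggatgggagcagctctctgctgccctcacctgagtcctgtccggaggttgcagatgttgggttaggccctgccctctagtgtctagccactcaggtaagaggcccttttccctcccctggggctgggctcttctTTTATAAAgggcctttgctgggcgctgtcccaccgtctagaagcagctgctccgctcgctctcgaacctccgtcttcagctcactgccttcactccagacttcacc
KRT18, chr7:135035918-135036167, plus strand: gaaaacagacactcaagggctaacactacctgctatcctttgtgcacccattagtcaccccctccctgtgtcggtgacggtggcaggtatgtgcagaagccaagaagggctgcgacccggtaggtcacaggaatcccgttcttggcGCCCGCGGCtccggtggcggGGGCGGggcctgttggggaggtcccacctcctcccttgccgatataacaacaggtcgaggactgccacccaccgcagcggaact
KRT5, chr7:134730570-134730819, minus strand: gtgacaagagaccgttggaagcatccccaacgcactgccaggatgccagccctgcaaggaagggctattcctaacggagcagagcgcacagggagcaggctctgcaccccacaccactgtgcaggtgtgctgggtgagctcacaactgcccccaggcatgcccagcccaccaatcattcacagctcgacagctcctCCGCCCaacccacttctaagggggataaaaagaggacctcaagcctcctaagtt
Capitals mark exact matches, on either strand, to the TATA box TATAAA, the GC box GGGCGG bound by Sp1, and GCCNNNGGC, a motif of AP-2 factors. Near matches were not marked, such as gataaaaag close to the end of the KRT5 window, so a motif not found here may be present in another form. The KRT8 window held TATAAA on both strands in overlapping letters, 106 to 99 bases before the start, and no GC box or AP-2 motif. The KRT18 window held 1 GC box and 1 palindromic AP-2 motif and no TATAAA, and the KRT5 window held 1 GC box, on the strand opposite to the one printed (CCGCCC), and neither other motif. Among 33469 promoter windows of the same length, 12.9% held TATAAA, 30.5% the GC box and 12.6% the AP-2 motif. KRT8 and KRT18 are neighbours on chromosome 7, where KRT5 also lies, and KRT15 and KRT19 are neighbours on chromosome 10, where KRT14 and KRT17 also lie. Each neighbouring pair has 0 other protein-coding genes between its members, and over the 15 libraries these pairs had the highest and the lowest correlation of the 21 (Pearson r = 0.95 and 0.25).

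KRT8, the type II keratin of luminal cells, ran more widely among midkine than among vehicle tumours. Its level, in CPM (reads relative to the size of the library, scaled between libraries), was 393 in midkine 1, 1225 at the median and 3761 in midkine 4-3, against 885 in vehicle 6, 1073 at the median and 1578 in vehicle 3. Midkine libraries lay on both sides of all vehicle libraries: 3 were above the highest and 3 below the lowest of them. KRT8 averaged 1454 ± 1043 CPM in midkine and 1150 ± 257 CPM in vehicle tumours (SD, n = 9 and 6), with a log2 fold change of 0.34 (SE 0.41; 95% interval -0.46 to 1.13; adjusted p = 0.837 by edgeR's quasi-likelihood test). Within the 10 libraries with MYH4 reads the log2 fold change was -0.27 (SE 0.38), and without midkine 4-3 it was 0.02. Other settings raised it. It was 0.54 with the level of epithelial genes as a covariate (SE 0.22, adjusted p = 0.508 by edgeR). Without midkine 1 and midkine 5 it was 0.59 (SE 0.32).

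KRT18, the type I partner of KRT8, followed the same order at both ends. It stood at 225 CPM in midkine 1, 780 at the median and 2006 in midkine 4-3, against 499 in vehicle 6, 730 at the median and 919 in vehicle 3. Its log2 fold change was 0.11 (SE 0.37; 95% interval -0.62 to 0.84), and its sign turned to -0.20 without midkine 4-3 and to -0.36 (SE 0.35) within the 10 libraries with MYH4 reads. RefSeq names 6 KRT18 pseudogenes in the rat, and how reads shared with them were counted is not given in the sources used here.

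KRT19, a type I keratin that lacks most of the tail domain, had the lowest fold change of the 7. Its level was 368 CPM in midkine 5, 1281 at the median and 2058 in midkine 4-3, against 852 in vehicle 4, 1458 at the median and 1917 in vehicle 2-2. Only midkine 4-3 lay above the highest vehicle library, and 4 midkine libraries lay below the lowest. The log2 fold change was -0.44 (SE 0.35; 95% interval -1.13 to 0.25; adjusted p = 0.735 by edgeR), and it stayed negative in all 25 other settings that were run, from -0.74 within the 10 libraries with MYH4 reads to -0.14 with the level of epithelial genes as a covariate.

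KRT5, the type II keratin of basal cells, divided the midkine libraries. It stood at 391 CPM in midkine 1, 749 at the median and 3031 in midkine 2, against 833 in vehicle 6, 1377 at the median and 2019 in vehicle 5. Midkine 2, 6 and 4-3 exceeded the highest vehicle library, and 5 midkine libraries lay below the lowest. The log2 fold change was -0.17 (SE 0.44; 95% interval -1.03 to 0.70), and it was -0.43 without midkine 2 and 0.18 (SE 0.51) within the 10 libraries with MYH4 reads.

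KRT14, the type I partner of KRT5, had the highest fold change of the 7. Its level was 217 CPM in midkine 1, 422 at the median and 1006 in midkine 4-3, against 157 in vehicle 2-1, 432 at the median and 700 in vehicle 3. The 3 midkine libraries 4-3, 2 and 6 exceeded every vehicle library, while the medians of the groups were close. The log2 fold change was 0.43 (SE 0.37; 95% interval -0.29 to 1.16; adjusted p = 0.753 by edgeR), and 0.26 without vehicle 2-1.

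KRT15, a type I keratin of basal progenitor cells in stratified epithelia, varied as much in vehicle as in midkine tumours. It stood at 274 CPM in midkine 3-1, 490 at the median and 1836 in midkine 2, against 156 in vehicle 2-1, 538 at the median and 1243 in vehicle 3. The log2 fold change was 0.12 (SE 0.48; 95% interval -0.83 to 1.07), and without midkine 2 it was -0.20. Within the 10 libraries with MYH4 reads it was 0.45 (SE 0.59).

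KRT17, a type I keratin that is induced in injured and inflamed epithelium, did not exceed the highest vehicle library in any midkine library. However, 3 midkine libraries lay below the lowest vehicle library. Its level was 136 CPM in midkine 5, 562 at the median and 1194 in midkine 2, against 341 in vehicle 4, 509 at the median and 1220 in vehicle 3. The log2 fold change was -0.0037 (SE 0.46; 95% interval -0.91 to 0.91), and 12 of its 25 other settings gave the opposite sign. KRT14, KRT16 and KRT17 are alike in sequence, and how reads that match more than 1 of them were assigned is not known.

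**Figure D1:**
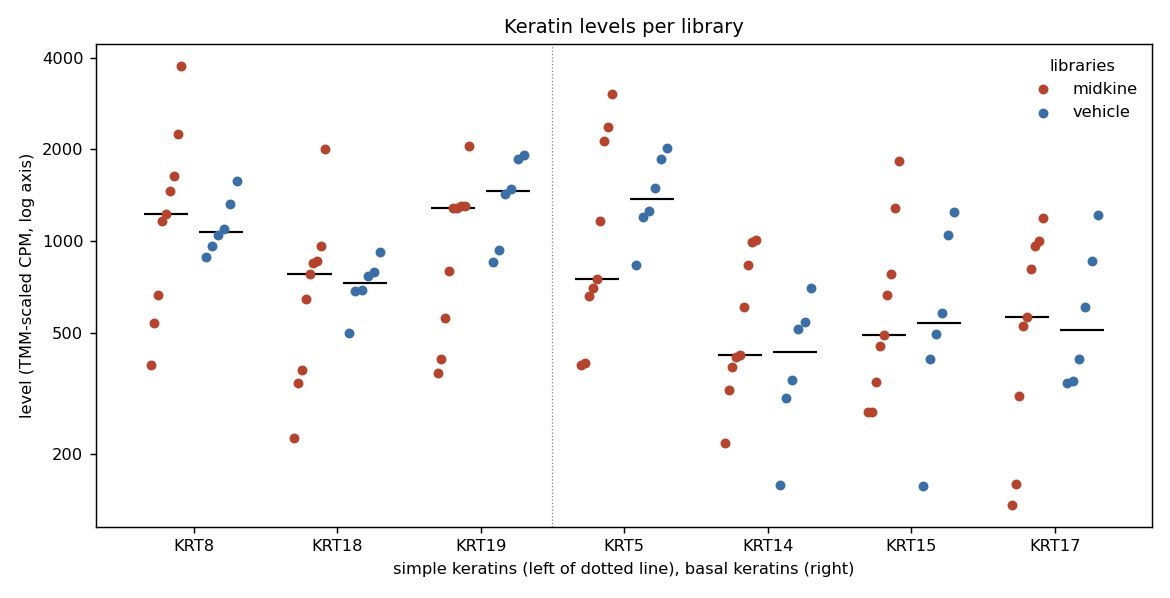
Level of each keratin (TMM-scaled CPM, log axis) in every library, midkine in red and vehicle in blue. Bars mark medians. The groups overlap for all 7 genes, and KRT8 runs from 393 to 3761 CPM in midkine against 885 to 1578 CPM in vehicle libraries.

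None of the 7 keratins passed an adjusted p of 0.05 in edgeR, DESeq2 or limma-voom, and none had an unadjusted p under 0.05 in edgeR (smallest 0.226, for KRT19). Of 11665 genes tested, 0.0% passed in edgeR and in limma-voom, and of 15059 tested in DESeq2, 0.611% passed (92 genes). At an unadjusted p under 0.05 edgeR found 1178 genes, 10.1% of those tested, and within the 10 libraries with MYH4 reads 10.2% of 11611 genes. The groups overlapped for all 7 keratins, while 0.0171% of tested genes did not overlap. Of the fold changes, 4 were positive and 3 negative, with a median of 0.11 against 0.04 for all genes tested. The 95% intervals reach a change of 2-fold on the upper side for KRT8, KRT14 and KRT15 and on the lower side for KRT19 and KRT5, so changes of that size are not excluded by these data.

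**Figure D2:**
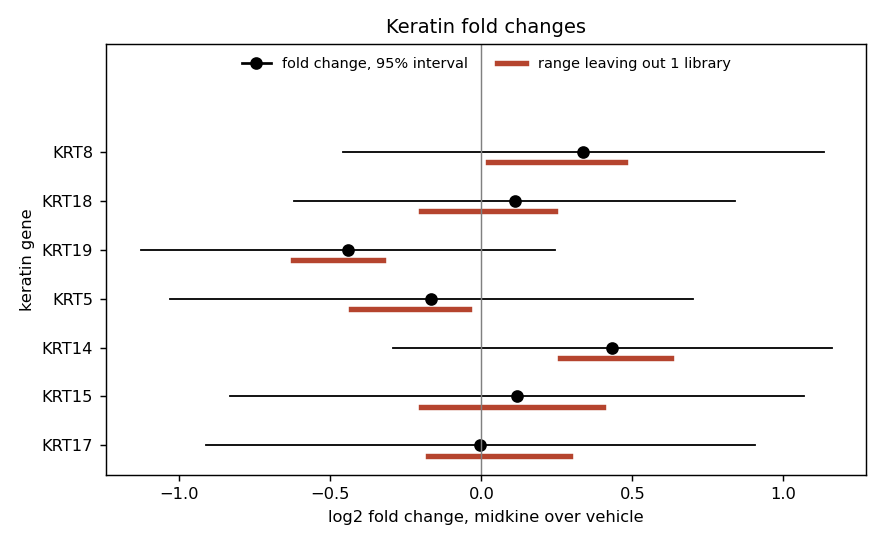
Log2 fold change of each keratin, midkine over vehicle, with its 95% interval in black and, in red, the range when 1 library at a time is left out. All 7 intervals include 0. Leaving out 1 library turned the sign of KRT18, KRT15 and KRT17.

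The spread between tumours was the larger feature. The SD of the log2 level was 1.03 in midkine and 0.31 in vehicle libraries for KRT8, and 0.95 in midkine and 0.30 in vehicle libraries for KRT18. For KRT5 it was 1.10 in midkine and 0.47 in vehicle libraries. KRT14 had 0.77 in both groups, and KRT15 had 0.96 in midkine and 1.07 in vehicle libraries. In 5 of the 7 keratins the SD was larger in midkine libraries, as it was in 82.2% of all genes tested, so a wider spread among midkine libraries was not limited to keratins. In vehicle tumours, KRT15 varied more than 94.7% of genes and KRT14 more than 86.9%, whereas KRT8 and KRT18 ranked at 47.0% and 44.8%.

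The 3 libraries with the lowest simple keratin levels were each the richest in 1 of 3 different lists of other cell types. The mean log2 CPM of KRT8, KRT18 and KRT19 was 8.37 in midkine 1, 8.72 in midkine 5 and 8.98 in midkine 4-2, all below the lowest vehicle library, vehicle 6, at 9.54. Midkine 1 had the most reads of the 8 skeletal muscle genes, 350574 CPM in sum, against 34.4 to 3610 CPM in the other midkine and 372 to 802 CPM in the vehicle libraries. Midkine 5 had the most of 8 fibroblast genes, 130441 CPM, against 204 to 7175 CPM in the other midkine and 424 to 8590 CPM in the vehicle libraries. Midkine 4-2 had the most of the 7 leukocyte genes with a row, 3199 CPM, against 149 to 847 CPM in the other midkine and 127 to 390 CPM in the vehicle libraries. MYH4, COL1A2 and the B cell gene MS4A1 were the marker genes of these 3 lists with no reads in at least 1 library. Over the 15 libraries, Pearson r of the mean simple level was -0.67 with the muscle list, -0.38 with fibroblast and -0.08 with leukocyte genes. Without midkine 1 and midkine 5 these values were -0.13, -0.12 and -0.49. The part of these cell types in the keratin levels was not tested.

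Epithelial genes outside the keratin family were lowest in the same libraries. Their list, 15 genes with EPCAM and CDH1 among them, had a mean log2 CPM of 6.25 in midkine 1, 6.35 in midkine 5 and 6.24 in midkine 4-2, against 7.06 to 7.54 in vehicle libraries. Set against this list, the simple keratins stood at 2.78 ± 0.45 in midkine and 2.66 ± 0.23 in vehicle libraries (difference of mean log2 levels, SD, n = 9 and 6). The low libraries then lay nearer the rest: midkine 1 stood at 2.12, midkine 5 at 2.37 and midkine 4-2 at 2.74, against 2.27 to 2.91 in vehicle libraries. Midkine 1 remained the lowest of all libraries, and midkine 4-3, at 3.54, remained the highest. The basal keratins against the same list stood at 2.27 ± 0.73 in midkine and 1.96 ± 0.67 in vehicle libraries, with midkine 2 highest at 3.56 and vehicle 2-1 lowest at 0.80.

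The luminal-to-basal keratin ratio overlapped between the groups. It was taken as the mean log2 CPM of the 3 simple keratins minus that of the 4 basal keratins, a value whose level depends on gene lengths and which is read between libraries only. In midkine libraries it was -0.58 in midkine 2, 0.06 in midkine 5, 0.14 in midkine 6, 0.27 in midkine 4-2, 0.42 in midkine 1, 0.90 in midkine 3-1, 1.01 in midkine 4-1, 1.03 in midkine 4-3 and 1.35 in midkine 3-2. In vehicle libraries it was 0.23 in vehicle 3, 0.25 in vehicle 5, 0.45 in vehicle 6, 0.63 in vehicle 4, 0.90 in vehicle 2-2 and 1.72 in vehicle 2-1. By this ratio vehicle 2-1 was highest and midkine 2 lowest, with a 4.94-fold range over the 15 libraries. The top rank depended on the genes used. Vehicle 2-1 had the lowest KRT14 and KRT15 (157 and 156 CPM) but 1257 CPM of KRT5. As KRT8 minus KRT5 it stood at -0.26, and midkine 3-2 was highest at 2.49, with midkine 2 again lowest at -1.31.

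The ratio averaged 0.51 ± 0.61 in midkine and 0.70 ± 0.56 in vehicle libraries (SD, n = 9 and 6), a difference of -0.19 (SE 0.31), which is smaller than either SD. As a score over genes picked with earlier results known, it was given no p-value. With KRT8 and KRT18 against KRT5 and KRT14 the difference was -0.0082, and from log2 of summed CPM it was -0.091. For the main ratio the difference was 0.02 without vehicle 2-1. Within the 10 libraries with MYH4 reads it was -0.69 (SE 0.31), since the midkine libraries left there (1, 2, 5 and 6) averaged 0.010. The 5 midkine libraries without MYH4 reads held the 4 highest midkine ratios, and they carry only title numbers 3 and 4.

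**Figure D3:**
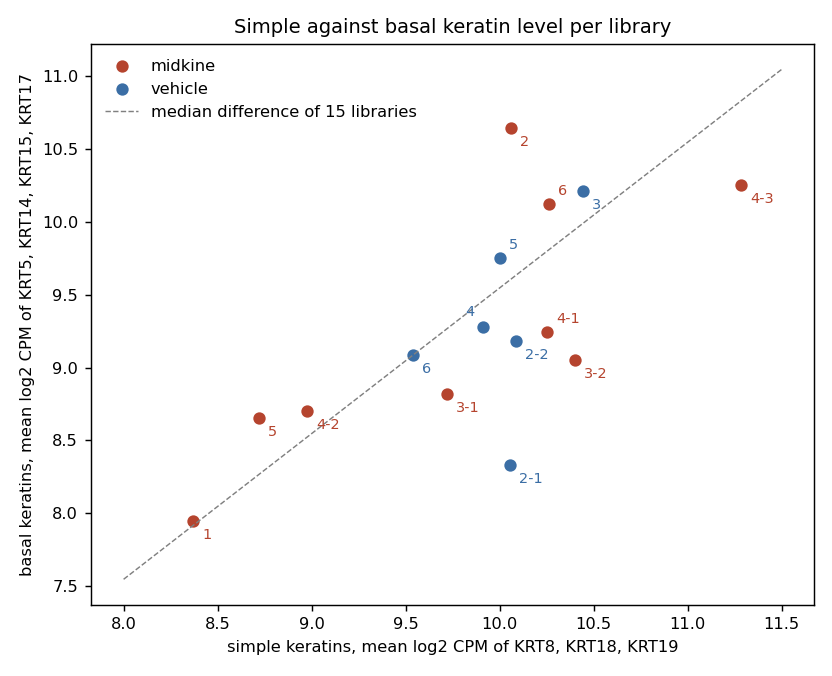
Mean log2 CPM of the simple keratins (x axis) and of the basal keratins (y axis) in each library, labelled by title number, midkine in red and vehicle in blue. The dashed line is the median difference of the 15 libraries. Midkine 1, 5 and 4-2 lie at the low end, midkine 2 lies farthest above the line, and vehicle 2-1 lies farthest below it.

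Partner keratins did not keep a fixed ratio. KRT5 had 3.05 reads per KRT14 read in midkine 2, 0.65 in midkine 3-2 and between 1.69 and 2.84 in the other 7 midkine libraries. In vehicle libraries it had 7.98 in vehicle 2-1, 4.91 in vehicle 2-2, 2.65 in vehicle 3, 3.44 in vehicle 4, 3.71 in vehicle 5 and 1.62 in vehicle 6. The groups overlapped, but all 9 midkine libraries lay below vehicle 4, 5, 2-1 and 2-2. On the log2 scale the KRT5 to KRT14 difference was 0.96 ± 0.66 in midkine and 1.84 ± 0.78 in vehicle libraries (SD, n = 9 and 6), which is -0.88 (SE 0.39) apart. This gap was -0.48 (SE 0.35) without vehicle 2-1 and 2-2, and -0.66 (SE 0.39) within the 10 libraries with MYH4 reads. It was described with no test, being 1 of 11 gene pairs examined.

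KRT8 and KRT18 kept a narrower balance. KRT8 had 1.42 reads per KRT18 read in midkine 5, the lowest midkine library, and 2.65 in midkine 3-2, the highest. In vehicle libraries it had 1.36 in vehicle 2-1, the lowest, and 1.77 in vehicle 6, the highest. The range over all libraries was 1.95-fold for this pair and 12.2-fold for KRT5 and KRT14. On the log2 scale KRT8 minus KRT18 was 0.84 ± 0.26 in midkine and 0.66 ± 0.16 in vehicle libraries, which is 0.18 (SE 0.11) apart. Of the midkine libraries, 5 lay above the highest vehicle library and 0 below the lowest. The gap was 0.09 (SE 0.09) without vehicle 2-1 and 2-2, and 0.06 (SE 0.11) within the 10 libraries with MYH4 reads.

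KRT19 relative to KRT8 was another of the 11 pairs, picked out after its values were seen and described with no test. The log2 difference was -0.37 ± 0.34 in midkine and 0.26 ± 0.54 in vehicle libraries (SD, n = 9 and 6), which is -0.63 (SE 0.25) apart, and -0.39 (SE 0.25) without vehicle 2-1 and 2-2. The groups overlapped: vehicle 4, at -0.64, lay among the midkine libraries, which ran from -0.87 in midkine 4-3 to 0.06 in midkine 1 and midkine 2, next to vehicle 6 at 0.08. Both luminal and basal type II genes were set against each other as KRT8 to KRT5, where midkine 3-2 had 5.63 reads and midkine 2 had 0.40, against 0.54 to 1.10 in vehicle libraries.

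**Figure D4:**
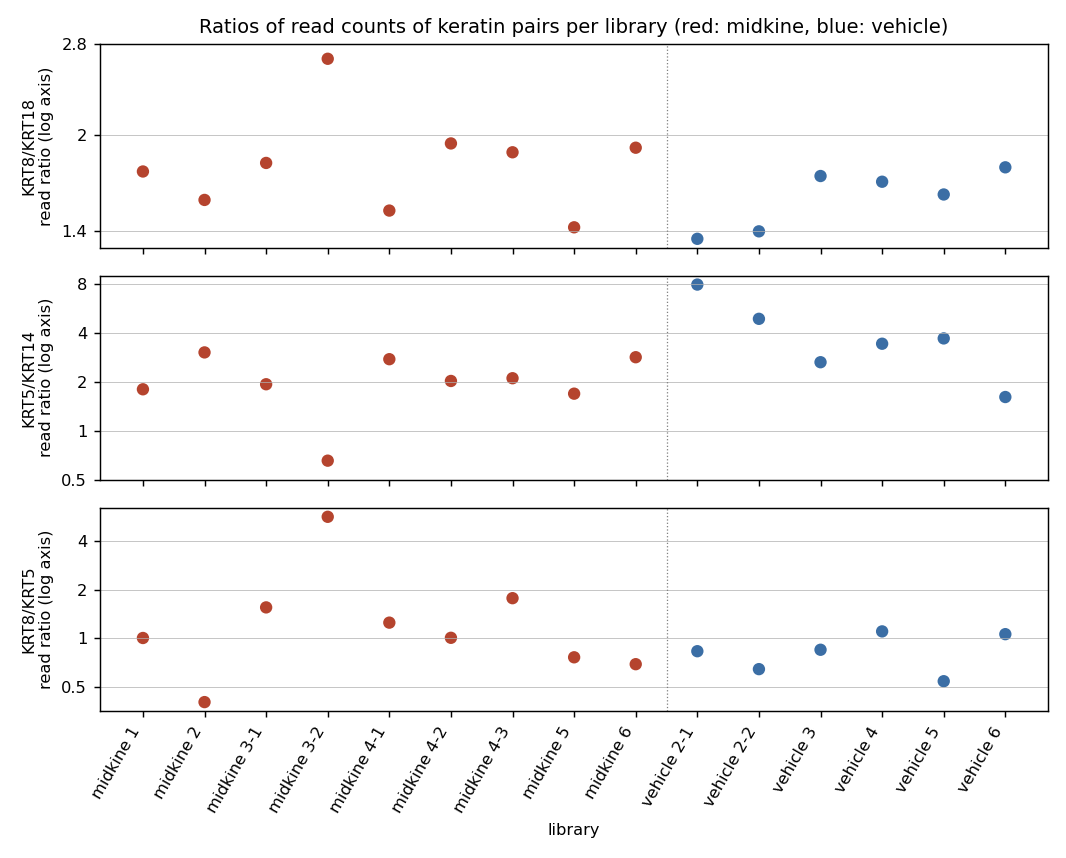
Reads of one keratin per read of another in each library (log axes), for KRT8 to KRT18, KRT5 to KRT14 and KRT8 to KRT5, midkine in red and vehicle in blue. Midkine 3-2 is the highest in the upper and lower panels (2.65 and 5.63) and the lowest in the middle one (0.65), and vehicle 2-1 is the highest in the middle panel (7.98).

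Libraries with the same first title number were not alike in all keratins. Their range cannot exceed that of their group, which includes them. KRT8 stood at 1459 CPM in midkine 4-1, 664 CPM in midkine 4-2 and 3761 CPM in midkine 4-3, a range of 2.50 on the log2 scale against 3.26 over all midkine libraries. Their luminal-to-basal ratio spanned 0.76, against 1.93 over all midkine libraries. Vehicle 2-1 and 2-2 were close in KRT8 (1048 and 967 CPM) and apart in KRT15 (156 and 408 CPM).

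All 21 pairs of keratins correlated positively over the 15 libraries, and 14 passed an adjusted p of 0.05 for Pearson's r (permutation test, two-sided, adjusted over the 21 pairs). KRT8 and KRT18 had r = 0.95 and Spearman's rho = 0.93 (permutation p = 1e-05 each, the smallest that 100000 permutations can give; adjusted p = 0.00021), and r = 0.89 without midkine 4-3 and midkine 1, the libraries farthest from the median. KRT14 and KRT15 had r = 0.80 and rho = 0.75 (permutation p = 0.00034 and 0.00208; adjusted 0.00179 and 0.0143), and r = 0.66 without the 2 farthest libraries. KRT19 and KRT17, of different classes, had r = 0.84 and rho = 0.68 (permutation p = 0.00014 and 0.00685; adjusted 0.00098 and 0.0163), and r = 0.62 without midkine 5 and midkine 1. The partners KRT5 and KRT14 had r = 0.54 and rho = 0.58 (permutation p = 0.0397 and 0.0261; adjusted 0.0556 and 0.0365), and r = 0.62 without midkine 1 and midkine 3-2. The lowest value was that of KRT19 and KRT15, r = 0.25 and rho = 0.18 (permutation p = 0.369 and 0.524; adjusted over the 21 pairs, the same), and r = 0.22 without the 2 farthest libraries.

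Without midkine 1 and midkine 5, 4 of the 21 pairs passed, and r of KRT18 with KRT14 was 0.47 against 0.57 over all libraries (permutation test, adjusted p = 0.152 and 0.0386). With the mean of the epithelial list subtracted, 4 of 21 passed: KRT8 with KRT18 (r = 0.86), KRT14 with KRT15 (r = 0.84), KRT5 with KRT15 (r = 0.67) and KRT19 with KRT5 (r = 0.62). By Spearman's rho 3 passed, and KRT5 with KRT15 did not (permutation test, adjusted p = 0.0567), with r = 0.42 without midkine 3-2 and midkine 2. Subtracting 1 shared value from both genes can itself raise r where they do not follow the list. Pearson r with the list was 0.10 for KRT15, 0.36 for KRT5 and 0.39 for KRT14. It was 0.74 for KRT17, 0.81 for KRT18, 0.83 for KRT8 and 0.87 for KRT19. Within the 10 libraries with MYH4 reads 12 passed by r and 3 by Spearman's rho. There r of KRT8 with KRT5 was 0.87, against 0.48 over all libraries (permutation test, adjusted p = 0.00551 and 0.0949), and 0.58 without midkine 1 and midkine 5. Libraries that share a title number may not be independent, and 13 pairs passed by r and 6 by Spearman's rho when such libraries were summed to 11 units.

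**Figure D5:**
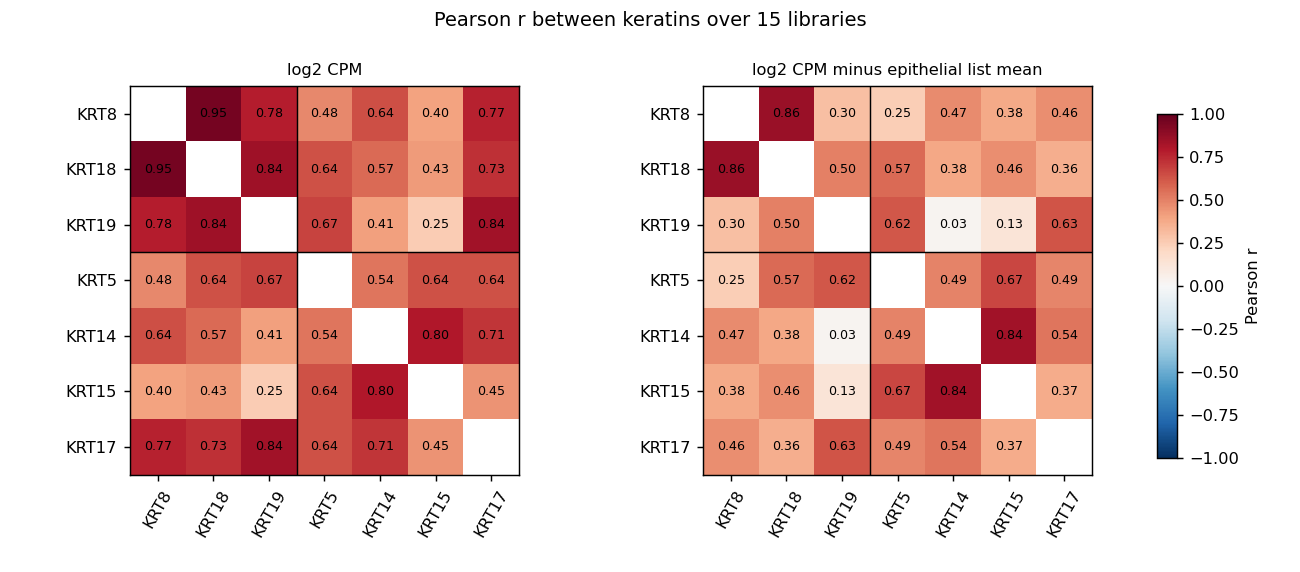
Pearson r of each pair of keratins over 15 libraries, from log2 CPM on the left and from log2 CPM minus the mean of the epithelial list on the right. Lines separate simple from basal keratins. KRT8 with KRT18 (0.95 and 0.86) and KRT14 with KRT15 (0.80 and 0.84) are high in both panels, while KRT8 with KRT19 is 0.78 on the left and 0.30 on the right.

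Genes outside the keratin family with the most similar pattern were ranked by Pearson r over the 15 libraries among 9405 genes, as a description. The mean simple keratin level was most like the surface protein gene LYPD3 (r = 0.97), TMEM30B (r = 0.96) and BAIAP2L1 (r = 0.95 over all libraries and 0.88 without midkine 1 and midkine 5). LYPD3 was also among the nearest 3 of KRT8 (r = 0.93) and KRT18 (r = 0.93). The mean basal level was most like the translation factor gene EIF4A1 (r = 0.91), the glycolytic enzyme gene PGAM1 (r = 0.91) and the nucleolar gene FBL (r = 0.90). The luminal-to-basal ratio was most like MCF2L (r = 0.86), the urea transporter gene SLC14A1 (r = 0.84) and NFXL1 (r = 0.79). KRT5 was most like the cartilage collagen gene COL2A1 (r = 0.95), KRT15 like the channel gene KCNH1 (r = 0.92), and KRT17 like SPECC1 and PTPRZ1 (r = 0.90 each).

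Other keratins were sparse. Of 38 other keratin genes, 35 had fewer than 100 reads in every library, 4 of them with no read at all, and 7 passed the expression filter. None passed the threshold in edgeR, as was the case for all 11665 genes tested. KRT23, a type I keratin, averaged 58.1 ± 50.9 CPM over midkine tumours and 52.1 ± 15.7 CPM over vehicle tumours (SD, n = 9 and 6). KRT20, a keratin of intestinal and urothelial cells, averaged 20.1 ± 24.2 CPM over midkine tumours and 44.1 ± 28.4 CPM over vehicle tumours (log2 fold change -1.13, SE 0.77, adjusted p = 0.666 by edgeR). KRT20 ran from 2.32 CPM in midkine 3-2 to 69.3 CPM in midkine 2, and from 1.05 CPM in vehicle 6 to 83.5 CPM in vehicle 3. KRT76 had the smallest p of these genes, at 1.52 ± 1.23 CPM in midkine and 4.06 ± 2.68 CPM in vehicle tumours (log2 fold change -1.39, SE 0.51, adjusted p = 0.399 by edgeR). KRT10, KRT75 and KRT42 had log2 fold changes of -0.15, 0.11 and 1.10.

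Measured genes of cornified and squamous epithelium stood at low levels, and those without a row could not be judged. Of 20 genes of cornified and squamous epithelium, 13 had a row, 10 of these had no read in at least 1 library (KRT1, KRT4, KRT13, KRT16 and IVL among them), and their summed level was 21.7 to 57.1 CPM in midkine and 19.7 to 31.4 CPM in vehicle libraries. SBSN, TGM1 and KRT10 were the 3 that were tested, and none passed, as for all genes tested in edgeR.

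No gene of a protein that anchors keratin filaments passed the threshold in edgeR, where 0 of 11665 genes tested passed. Of 16 measured genes of desmosomes and filament linkers, 5 had higher and 11 lower means in midkine tumours, with a median log2 fold change of -0.19 against 0.04 for all genes tested. For the desmosomal plaque gene PKP1 the log2 fold change was 0.67 (SE 0.44). The linker EVPL had -0.50 (SE 0.35), and the linker PPL had -0.44 (SE 0.41). Of 15 tested genes of keratin-binding and filament-regulating proteins, 9 had higher and 6 lower means, with SQSTM1, an autophagy receptor, at 0.77 (SE 0.40) and at its highest, 2079 CPM, in midkine 3-2. Of 11 tested genes of other intermediate filament proteins, 8 had higher and 3 lower means, with a median of 0.52. VIM, the mesenchymal filament protein, averaged 1002 ± 329 CPM over midkine tumours and 523 ± 219 CPM over vehicle tumours (log2 fold change 0.94, SE 0.28, adjusted p = 0.399 by edgeR). DES, the muscle filament protein, stood at 8065 CPM in midkine 1, the library with the most muscle reads, and at 48.6 CPM at the midkine median, against 31.5 CPM at the vehicle median. VIM is also high in fibroblasts and leukocytes, whose 7 and 6 tested markers all had higher means in midkine tumours, and their part in it was not tested.

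Transcription factors that act on keratin genes had 7 higher and 10 lower means among 17 tested, with a median log2 fold change of -0.02. In edgeR 0 of them passed the threshold, as for all genes tested. KLF4, a zinc-finger factor of epithelial differentiation, stood at 31.3 CPM in midkine 2, 62.1 at the median and 199 in midkine 3-2, against 11.1 in vehicle 6, 30.5 at the median and 41.0 in vehicle 2-2. All but 2 of the 9 midkine libraries exceeded every vehicle library. Its log2 fold change was 1.65 (SE 0.44, adjusted p = 0.399 by edgeR) and 1.68 (SE 0.43, adjusted p = 0.0347) in DESeq2. In DESeq2 0.611% of 15059 genes tested passed. Within the 10 libraries with MYH4 reads it was 1.81 (SE 0.47, adjusted p = 0.297 by edgeR). The adjusted p was 0.868 in limma-voom. The part of non-epithelial cells in the KLF4 level was not tested. SOX10, a factor of mammary stem and basal cells, had -0.55 (SE 0.27). GRHL2, a general epithelial factor, had -0.44 (SE 0.26).

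Non-keratin markers of the epithelial classes had mostly lower means in midkine tumours. In the myoepithelial and basal list 12 of 16 were lower, and in the list of luminal regulators and markers 12 of 14. In the general epithelial list 12 of 15 were lower. In edgeR 0 passed the threshold in each list, as over all genes tested. The median log2 fold changes were -0.31, -0.60 and -0.20, against 0.11 for the simple keratins and 0.06 for the basal keratins. The sign for the simple keratins depended on the fit: limma-voom gave 0.06 for KRT8, -0.13 for KRT18 and -0.58 for KRT19, and their mean log2 CPM was 9.78 in midkine and 10.01 in vehicle libraries. Of all genes tested, 55.7% had higher means in midkine tumours. Markers of other cell types had higher means there in 7 of 7 fibroblast, 6 of 6 leukocyte and 6 of 6 endothelial genes tested, with medians of 2.10, 2.00 and 0.92 and 0 past the threshold, and their part in the epithelial values was not tested. KIT, a receptor of luminal progenitors, had -1.13 (SE 0.56). CSN2, a milk casein, stood at 8276 CPM in midkine 5 and 15.4 CPM at the midkine median, against 4.04 CPM at the vehicle median.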

How the data were processed

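RNA from pieces of 15 mammary tumours was sequenced as 150-bp read pairs after poly(A) selection, per the labels' protocols. Raw counts of reads for 17463 gene symbols were deposited as a single table, unnormalized as the whole numbers in it show. Build rn6 is named by the submitters' processing notes. The name of the deposited table gives STAR as the source of the counts. Its version and the counting mode, strand and annotation: not given in the sources used here.

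Samples were grouped by title and treatment label. The labels do not say whether each library came from a separate animal, so p-values measure the spread between these libraries, which may in part be technical. In 51 within-group pairs, no 2 libraries agreed within sampling noise (smallest chi-square per degree of freedom 20.3).

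Counts were analysed in R 4.3.3. Genes kept by edgeR 4.0.16's expression filter (11665) received TMM (trimmed mean of M-values) scaling and were tested, midkine against vehicle, by its quasi-likelihood test, with p-values adjusted over all of them after Benjamini and Hochberg. The standard error is the fold change over the root of F, and 95% intervals from the standard error. Log2 CPM used a prior count of 2. DESeq2 1.42.0, limma-voom (limma 3.58.1), other scalings, a covariate, a block and subsets of libraries were alternatives. The fits and the correlation test were tested on simulated data.

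The members and lists were chosen with earlier results of these data known. The planned ratio of 4 to 4 genes and the 28 planned pairs became 3 to 4 genes and 21 pairs, because KRT7 was not analysed. Named genes are the members, the 6 other keratins of highest level, up to 4 of smallest p per list, and the 3 most similar by r with a mean log2 CPM of at least 3. Lists of other cell types served as markers. The gene pairs whose ratios are given were chosen after their values were seen, apart from the luminal-to-basal ratio.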

Additional observations from a re-analysis of the deposited data

Results flagged for a closer look

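Midkine 3-2 stood apart from the other midkine libraries in both partner ratios. Its KRT8 minus KRT18 value was 1.41 on the log2 scale, with a gap to the next library that took 0.503 of the group's range. Its KRT5 minus KRT14 value was -0.61, with a gap of 0.619 of the range. These were the 2 cases among 24 sets of values examined, where chance gives about 1 in 20, so as few as these can arise by chance. That rate is only a rough guide, since the sets share genes and libraries and the pairs were chosen after their values were seen. The same library held the highest summed level of the epithelial list, 10342 CPM, against 2083 to 6008 CPM in the other midkine and 3905 to 5248 CPM in the vehicle libraries. Without it the group difference was 0.11 (SE 0.09) for KRT8 minus KRT18 and -0.69 (SE 0.34) for KRT5 minus KRT14.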

How the results depend on the processing

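KRT19 and KRT14 kept their directions in all 25 other settings, and none of the 7 keratins passed the threshold in any. DESeq2 called 92 genes where edgeR called 0. Within the 10 libraries with MYH4 reads KRT8 had a log2 fold change of -0.27, KRT18 of -0.36 and KRT5 of 0.18. KRT18 had -0.13 by limma-voom and -0.082 with libraries summed by title number. KRT5 had 0.083 with the epithelial level as a covariate and 0.051 without midkine 1 and midkine 5, a setting added after the data were seen. KRT17 had 0.012 with median-of-ratios scaling, 0.0096 by DESeq2, 0.35 with that covariate and 0.28 without midkine 1 and midkine 5. Leaving out 1 library gave -0.20 to 0.24 for KRT18, -0.20 to 0.40 for KRT15, -0.18 to 0.29 for KRT17 and -0.29 to 0.02 for the luminal-to-basal ratio difference. The count of correlated pairs was 14, and 4 both with the epithelial level subtracted and without midkine 1 and midkine 5. The cause of these changes was not tested. Same-numbered libraries of the 2 groups did not deviate together (r over 0.1 in 1 of 5 numbers). This cannot exclude that the numbers pair the samples, since the deviations also hold differences in tissue content. With the title number as a replicate block KRT17 had 0.18, no other keratin changed sign and 0 genes were called. Without scaling factors the median log2 fold change of all genes was -0.10, against 0.04 with TMM, and no keratin changed direction.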

Other observations

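KRT16, KRT80, KRT42 and KRT23 had their highest count in midkine 3-2, a pattern picked out after the values were seen. KRT16, a keratin of activated and injured epidermis, had 94 reads in midkine 3-2, 50 in midkine 4-3, 14 in midkine 2, 11 in midkine 6 and at most 2 in the other midkine libraries, against at most 4 in the vehicle libraries. KRT80 had 37 reads in midkine 3-2 and at most 17 in the other midkine libraries, against at most 11 in the vehicle libraries. KRT42 had 75 reads there and at most 42 in the other midkine libraries, against at most 20 in the vehicle libraries. KRT23, which had at least 75 reads in every library, had 181 CPM there and 17.9 to 87.2 CPM in the other midkine libraries, against 34.3 to 73.0 CPM in the vehicle libraries. KRT10 and KRT20 went the other way, with their lowest midkine levels in midkine 3-2, at 3.54 and 2.32 CPM.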
